A study of Homo sapiens with 12 samples.

Results

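The keratin genes KRT7, KRT8, KRT18, KRT19, KRT80, KRT10, KRT15 and KRT17 were followed in HK-2 cells, an immortalised human renal proximal tubule epithelial line, exposed to CsA or to control vehicle. CsA is taken to be cyclosporin A, which inhibits calcineurin. Members were all probe sets (groups of short probes that report 1 transcript) that the platform annotation assigns to exactly 1 of these genes. They numbered 13 of 54675 probe sets and covered 7 of the 8 listed genes, out of 19775 genes with such a probe set in all; KRT17 was not analysed here. The 4 groups, with 3 arrays each, were control at 12 h, CsA at 12 h, control at 48 h and CsA at 48 h. All cells were of the same line, grown with EGF, hydrocortisone, insulin, transferrin and selenium, and were treated close to confluence. Replicates are biological per the labels, and neither a dose of CsA nor the nature of the vehicle is stated in the sources used here. The series asks which expression changes mark the action of nephrotoxic compounds.

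Keratins are the intermediate filament proteins of epithelial cells. Each filament is built from pairs of a basic type II keratin, here KRT7, KRT8 and KRT80, and an acidic type I keratin, here KRT18, KRT19, KRT10, KRT15 and KRT17, and it is anchored to desmosomes at cell contacts and to hemidesmosomes at the matrix. KRT8 with KRT18 is the basic pair of simple epithelia and is present along the renal tubule, whereas KRT7 and KRT19 are best known from ductal epithelia, including the collecting duct. KRT10 is best known from the upper layers of the epidermis and KRT15 from its basal layer.

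Values are log2 probe set summaries. A probe set was tested when its log2 value was above 4 on at least 3 of the 12 arrays, and a change is called at an adjusted p under 0.05 (limma, Benjamini-Hochberg over 20625 probe sets). The brightest probe set of a gene is its reference. Of the 13 keratin probe sets, 9 passed this filter and represented all 7 genes. The other 4, namely KRT7 1558393_at, 1558394_s_at and 214031_s_at and KRT19 228491_at, lay below 4 on every array and are not discussed further. Levels of different probe sets cannot be set against each other on this scale, so each gene is compared only with itself.

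The arrays at 48 h were more variable than those at 12 h. The median SD of a probe set was 0.12 in both 12 h groups, 0.17 in control at 48 h and 0.22 in CsA at 48 h (n = 3 each). CsA 48 h replicate 3 stood apart. Its hybridization control probe sets had a median log2 value of 7.38, against 9.89 to 11.4 on the other arrays, and 8.56% of tested probe sets lay over 1 log2 unit away from the mean of the other two CsA 48 h arrays. Poly-A control probe sets were low on replicate 1 of control and of CsA at 48 h (medians 3.78 and 4.13, against 8.26 to 9.99 elsewhere). The part of these technical differences in the results was not tested. Values without CsA 48 h replicate 3 are given for several keratin results that it moves. They are also given where it ends or adds a call of a gene named here. Of 11 proximal tubule markers, 8 lay below 4 on every array, among them LRP2, CUBN, AQP1 and ANPEP; PAX8, CDH6 and SLC4A4 were detected, and their values are given with the other marker lists.

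Over time, from 12 h to 48 h in control medium, the keratins split. KRT19, KRT8 and KRT18 fell, KRT80 and KRT10 rose, and KRT7 and KRT15 did not pass the test. In this comparison 7 of 9 keratin probe sets were called, 4 higher and 3 lower, against a background of 39.3% of all tested probe sets called, 20.4% higher and 18.8% lower. The arrays of the times did not overlap for 8 of 9 keratin probe sets, against 55.2% of all. The keratin count was not tested against that background.

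**Figure D1:**
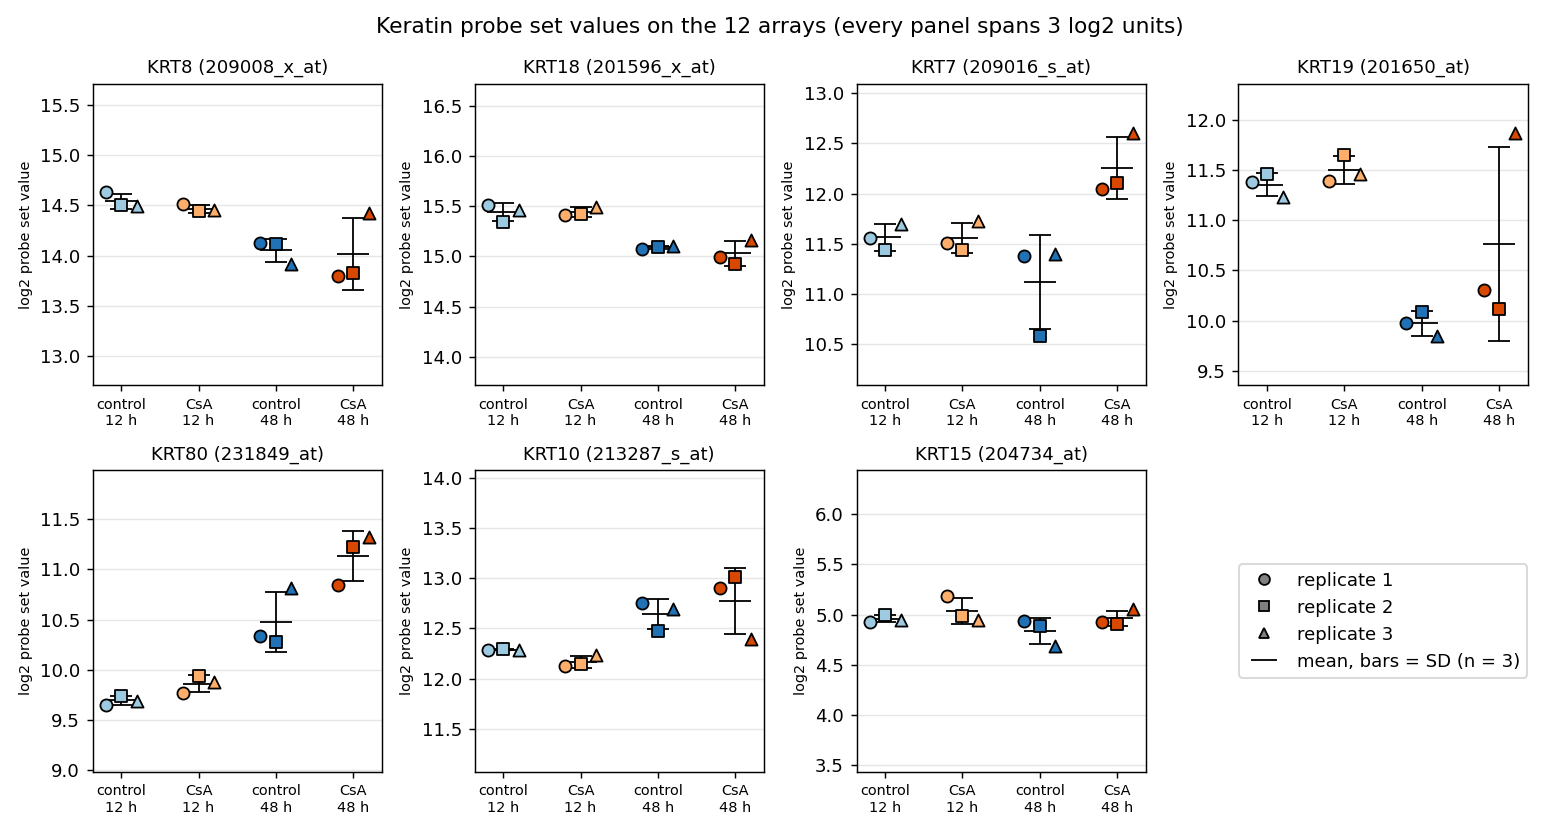
Log2 value of the reference probe set of each keratin gene (y axis, every panel 3 log2 units high) on each array of the 4 groups (x axis); symbols are single arrays by replicate number, the long bar is the mean and the error bar the SD (n = 3). KRT19 separates the times except for CsA 48 h replicate 3 at 11.87, and KRT7 is high in all 3 CsA 48 h arrays.

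KRT8, the type II keratin of simple epithelia (209008_x_at), read 14.63, 14.50 and 14.49 in control at 12 h and 14.12, 14.12 and 13.92 in control at 48 h. All 48 h control arrays were lower than all 12 h control arrays. The fall was 1.40-fold, a log2 change of -0.49 ± 0.09 (SE, n = 3 against 3, adjusted p = 0.00866). With CsA the values were 14.51, 14.44 and 14.45 at 12 h and 13.79, 13.83 and 14.43 at 48 h. Replicate 3 thus lay just under the 12 h values while the other two arrays lay well below them. The log2 change over time in CsA was -0.45 ± 0.19 (adjusted p = 0.104) and did not pass; without CsA 48 h replicate 3 it was -0.66 (adjusted p = 0.00201).

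KRT18, the type I partner of KRT8 (201596_x_at), read 15.51, 15.34 and 15.46 in control at 12 h and 15.07, 15.10 and 15.10 in control at 48 h. The groups did not overlap, and KRT18 fell by 0.35 ± 0.08 on the log2 scale (1.27-fold, adjusted p = 0.0159). Leaving out control 12 h replicate 1 or replicate 3 ended this call (adjusted p = 0.0597 and 0.0631). The CsA arrays read 15.41, 15.42 and 15.49 at 12 h and 15.00, 14.93 and 15.17 at 48 h, again without overlap. KRT18 fell by 0.41 ± 0.10 there (1.33-fold, adjusted p = 0.0218). That call held without CsA 48 h replicate 3 (-0.48, adjusted p = 0.00606) and ended without any single one of the other 5 CsA arrays, with adjusted p-values up to 0.0819. KRT8 and KRT18 are neighbouring genes on chromosome 12 in the RefSeq gene order. RefSeq lists 52 pseudogenes of KRT8 and 68 of KRT18, and both probe sets are of the x_at kind that can share sequence with related transcripts, so their values may include signal from such copies.

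KRT19, the type I keratin of ductal epithelia that lacks the usual tail domain (201650_at), had the largest fall of the keratins in control. It read 11.38, 11.45 and 11.23 in control at 12 h. At 48 h the control arrays read 9.98, 10.09 and 9.85, all more than 1 log2 unit lower. The fall was 2.61-fold (log2 change -1.38 ± 0.10, adjusted p = 0.000346), and it was called whichever control array was left out. In CsA the 12 h arrays read 11.39, 11.65 and 11.46. The 48 h arrays read 10.30, 10.11 and 11.87, so that replicates 1 and 2 were low like the controls and replicate 3 was above every other array. The log2 change over time in CsA was -0.74 ± 0.46 (adjusted p = 0.253). Without replicate 3 it was -1.29 (adjusted p = 0.00108). The gap of replicate 3 from the mean of replicates 1 and 2 was 1.66 for KRT19, and only 2.31% of tested probe sets had a larger one.

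KRT80, a type II keratin found in many epithelia near the cell margin (231849_at), moved the other way. Control arrays read 9.65, 9.74 and 9.69 at 12 h and 10.34, 10.27 and 10.82 at 48 h. CsA arrays read 9.77, 9.93 and 9.88 at 12 h and 10.85, 11.23 and 11.32 at 48 h. The 4 groups ordered without overlap as control 12 h, CsA 12 h, control 48 h and CsA 48 h. KRT80 rose 1.72-fold over time in control (log2 change 0.78 ± 0.16, adjusted p = 0.00990) and 2.41-fold in CsA (1.27 ± 0.15, adjusted p = 0.00178). Both rises were called whichever single array was left out. The steps between CsA and control at each time did not pass the test.

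KRT10, the type I keratin of differentiating epidermis, had 3 tested probe sets. Its reference, 213287_s_at, read 12.29, 12.29 and 12.28 in control at 12 h and 12.76, 12.48 and 12.69 in control at 48 h. The CsA arrays read 12.13, 12.14 and 12.24 at 12 h and 12.91, 13.02 and 12.39 at 48 h. At both exposures all 48 h arrays were above all 12 h arrays. KRT10 rose by 0.35 ± 0.10 in control (1.28-fold, adjusted p = 0.0300) and by 0.60 ± 0.18 in CsA (1.52-fold, adjusted p = 0.0397) on this probe set.

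The KRT10 probe sets 207023_x_at and 210633_x_at had the same sign. Both are of the x_at kind, which can share sequence with related transcripts, and RefSeq lists 0 pseudogenes of KRT10. For 207023_x_at the log2 change was 0.43 ± 0.08 in control (adjusted p = 0.00924) and 0.73 ± 0.14 in CsA (adjusted p = 0.00972), and both calls held whichever array was left out. For 210633_x_at it was 0.30 ± 0.08 in control (adjusted p = 0.0298, and 0.0556 in the fit blocked by replicate number) and 0.54 ± 0.17 in CsA, just outside the threshold (adjusted p = 0.0507). The control calls of 213287_s_at and 210633_x_at held only without control 48 h replicate 2 (adjusted p = 0.0126 and 0.0229) and ended without any other control array, with adjusted p-values up to 0.0903. The CsA call of 213287_s_at held only without CsA 48 h replicate 3 (0.79, adjusted p = 0.00167), with adjusted p-values up to 0.115 otherwise; 210633_x_at was also called without that array (0.72, adjusted p = 0.00314).

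Promoter letters were at hand for KRT8 and KRT10 only, and the KRT8 window lay inside its RefSeq span and is not shown. KRT10 was the one type I keratin called higher over time, and the 250 bases before its RefSeq start are shown. They lie at chr17:40822615-40822864 on the minus strand of GRCh38.p14. Capitals mark a TATA box match (TATAAA), which begins 29 bases before the start, and a match to the C/EBP half-site pattern on the reverse strand (TTNNGCAA), which begins 121 bases before it.
KRT10: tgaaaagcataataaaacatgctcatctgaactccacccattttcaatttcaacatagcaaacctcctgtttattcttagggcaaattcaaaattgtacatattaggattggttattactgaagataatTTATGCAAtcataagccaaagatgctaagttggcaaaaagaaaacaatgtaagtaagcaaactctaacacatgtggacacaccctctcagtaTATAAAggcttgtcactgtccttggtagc
Both strands were searched for TATAAA, TTGCNNAA, the AP-1 pattern TGANTCA and the GC box GGGCGG; the last pair had no match here. Of 35116 RefSeq windows of this length, 10.7% held TATAAA, 9.05% the C/EBP pattern, 6.57% the AP-1 pattern and 42.6% the GC box. None of these patterns matched in the KRT8 window. The KRT10 matches describe the letters of the window and say nothing about binding.

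KRT7, the type II keratin of ductal epithelia (209016_s_at), was the one keratin whose arrays all moved down over time in control and all moved up in CsA. Control arrays read 11.56, 11.43 and 11.70 at 12 h and 11.38, 10.58 and 11.40 at 48 h. All 48 h controls were lower than the 12 h controls, but replicate 2 lay far below the other two, and the log2 change of -0.44 ± 0.23 did not pass (adjusted p = 0.181). Without replicate 2 it was -0.17 (adjusted p = 0.255). CsA arrays read 11.51, 11.44 and 11.73 at 12 h and 12.05, 12.11 and 12.60 at 48 h. KRT7 rose 1.62-fold over time in CsA (log2 change 0.69 ± 0.18, adjusted p = 0.0256). This call ended without CsA 12 h replicate 1, 2 or 3 (adjusted p = 0.0850, 0.0884 and 0.0501) and held without any one of the 48 h arrays.

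KRT15, the basal-layer type I keratin (204734_at), stayed close to the filter. Its 12 values ran from 4.68 to 5.19. The log2 change over time was -0.12 ± 0.09 in control (adjusted p = 0.334) and -0.07 ± 0.11 in CsA (adjusted p = 0.608). At this level the values lie near background, and a change could not be told from none. In RefSeq KRT15 is the direct neighbour of KRT19 on chromosome 17, and KRT80 that of KRT7 on chromosome 12.

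In CsA, 5 of 9 keratin probe sets were called over time, 4 higher (KRT7, KRT80 and 2 of KRT10) and 1 lower (KRT18). The background was 39.6% of probe sets called, 19.6% higher and 20.0% lower. Arrays of the times did not overlap for 7 of 9 keratin probe sets, against 57.8% of all. Without CsA 48 h replicate 3, 8 of 9 keratin probe sets were called, against 49.0% of all in that fit.

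**Figure D2:**
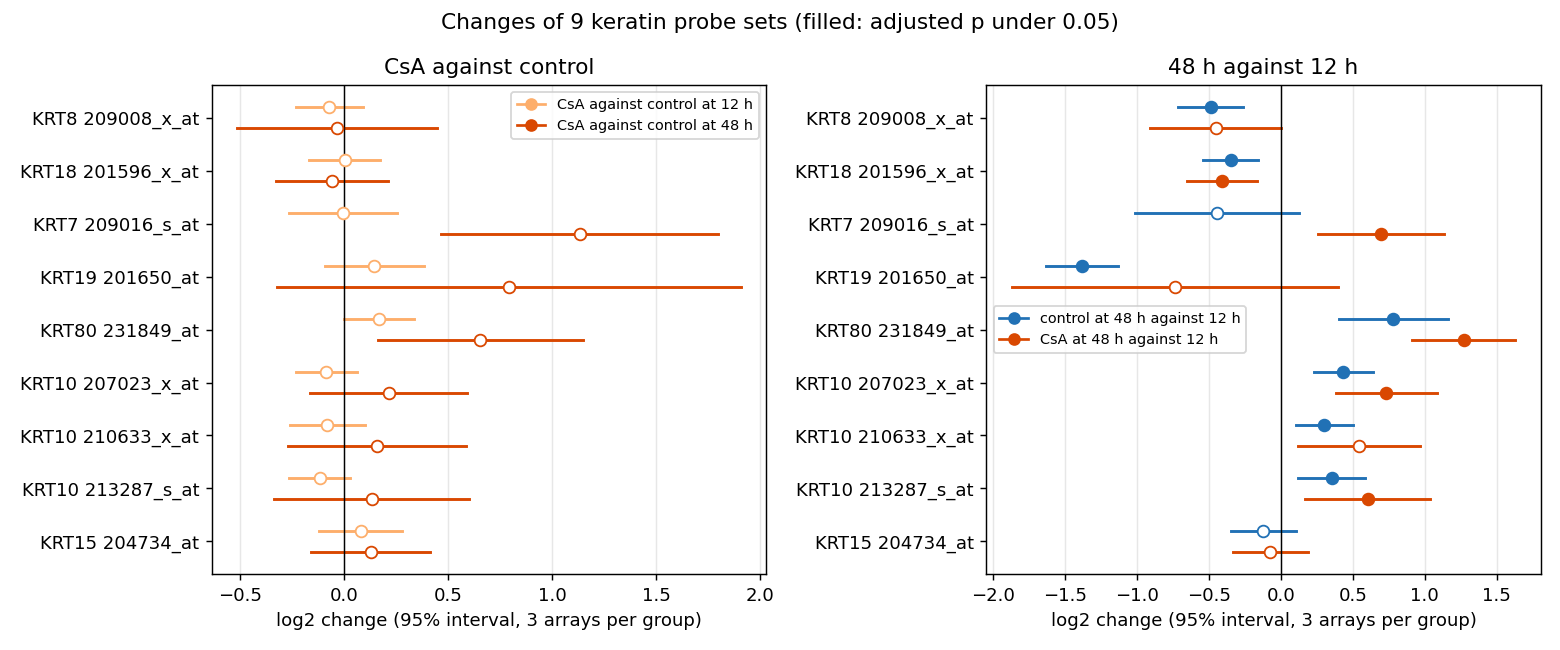
Log2 change with its 95% interval (x axis, 3 arrays per group) for the 9 tested keratin probe sets (y axis), with CsA against control on the left and 48 h against 12 h on the right; filled points have an adjusted p under 0.05. No point is filled on the left, while 7 control and 5 CsA points are filled on the right.

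CsA against control at 12 h left the keratins close to the controls. None of 9 keratin probe sets was called, and 0% of all tested probe sets was (limma; 1341 probe sets had an unadjusted p under 0.05). The arrays did not overlap for 3 keratin probe sets, against 12.0% of all. KRT80 was higher in all CsA arrays by 0.17 ± 0.07 (adjusted p = 0.765), and KRT10 was lower in all by 213287_s_at (log2 change -0.12 ± 0.06, adjusted p = 0.814) and by 207023_x_at (-0.09 ± 0.06, adjusted p = 0.864). The log2 change was -0.07 ± 0.07 for KRT8, 0.14 ± 0.10 for KRT19 and 0.08 ± 0.08 for KRT15. Its 95% interval was -0.17 to 0.17 for KRT18, -0.26 to 0.25 for KRT7 and -0.23 to 0.09 for KRT8. It was -0.003 to 0.34 for KRT80, -0.09 to 0.38 for KRT19 and -0.12 to 0.28 for KRT15. For KRT10 by 213287_s_at it was -0.26 to 0.03. These intervals are from fits by group only and were not adjusted for the number of probe sets tested.

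At 48 h KRT7, KRT80 and KRT19 were higher in every CsA array than in every control array. The difference was 2.19-fold for KRT7 (log2 change 1.13 ± 0.27), 1.57-fold for KRT80 (0.65 ± 0.20) and 1.73-fold for KRT19 (0.79 ± 0.46). None passed the test over all probe sets (adjusted p = 0.120, 0.169 and 0.401). Among all tested probe sets 0.0388% were called, with 4025 at an unadjusted p under 0.05, and the arrays of the groups did not overlap for 27.5%, against 3 of 9 keratin probe sets. The 95% interval was 0.47 to 1.80 for KRT7, 0.16 to 1.15 for KRT80 and -0.33 to 1.91 for KRT19. No interval given for the keratins was adjusted for the number of probe sets tested.

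The KRT7 and KRT80 results turn on how the spread was estimated. With all 12 arrays sharing 1 estimate, KRT7 (adjusted p = 0.0114) and KRT80 (adjusted p = 0.0245) were called among the 12.7% of probe sets called by that fit. That fit pools the 48 h arrays with the 12 h arrays, whose spread was smaller. With arrays weighted by their fit, KRT7 was called (log2 change 0.96, adjusted p = 0.0470) and KRT80 was not (0.45, adjusted p = 0.164). The weighted fit called 9.69% of all probe sets. Without CsA 48 h replicate 3, the log2 change was 0.96 for KRT7 and 0.56 for KRT80. Without control 48 h replicate 2, the low array, it was 0.86 for KRT7.

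The KRT19 difference at 48 h rested on 1 array. Without CsA 48 h replicate 3 it was 0.24 in place of 0.79 (adjusted p = 0.339). For KRT8, replicates 1 and 2 of CsA lay below all 48 h controls and replicate 3 above them, and the log2 change was -0.04 ± 0.20 with that array and -0.24 without it. KRT10 went the other way on the same array. Its reference probe set had a log2 change of 0.13 ± 0.19 (adjusted p = 0.753) and 0.32 without replicate 3, which lay below all 3 controls. KRT18 (-0.06 ± 0.11) and KRT15 (0.13 ± 0.12) overlapped between the groups.

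**Figure D3:**
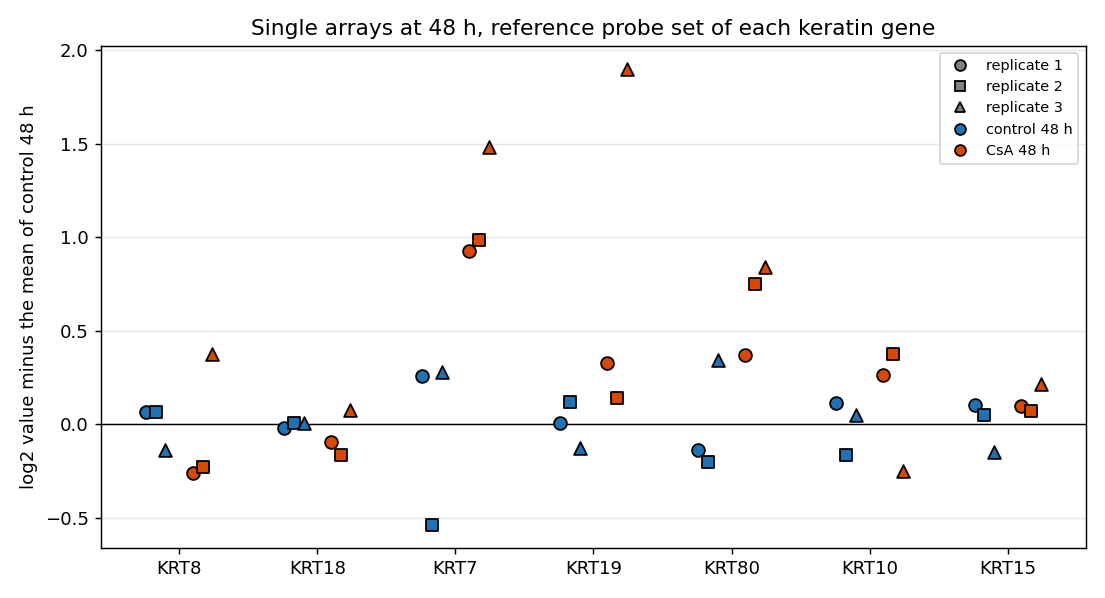
Each 48 h array minus the mean of the 3 control 48 h arrays (y axis, log2) for the reference probe set of each keratin gene (x axis); blue is control, orange is CsA, and symbols give the replicate number. CsA replicate 3 is the highest array for KRT7, KRT8, KRT18, KRT19, KRT80 and KRT15 and the lowest for KRT10.

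Whether the CsA difference at 48 h exceeded that at 12 h was tested over all 12 arrays, which shared 1 estimate of the spread. No keratin probe set was called, and 0.320% of all probe sets were. KRT7 had a difference of effects of 1.14 ± 0.31 on the log2 scale (95% interval 0.44 to 1.83, adjusted p = 0.136). With array weights it was called at 0.97 (adjusted p = 0.0440), in a fit that called 6.08% of all probe sets. KRT80 had 0.49 ± 0.22 (adjusted p = 0.327). KRT19 had 0.65 ± 0.51 (adjusted p = 0.588), and 0.09 without CsA 48 h replicate 3. The 3 KRT10 probe sets had 0.24 to 0.30, and KRT8, KRT18 and KRT15 had 0.04, -0.06 and 0.05. Without CsA 48 h replicate 3 the KRT10 probe sets had 0.42 to 0.44, KRT8 had -0.17 and KRT18 had -0.13, and none was called.

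The other keratins read near background. Of 37 further keratin genes with a probe set of their own, none passed the filter and 36 lay below 4 on every array, among them KRT1, the epidermal partner of KRT10, and KRT5 and KRT14, the pair of basal keratinocytes. None of 11 squamous differentiation genes with a probe set, such as IVL (involucrin) and TGM1 (a transglutaminase), was above 4 on any array.

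Of 10 tested intermediate filament genes other than keratins, 7 fell and 1 rose over time in control, and 5 fell and 1 rose in CsA. Over all probe sets 18.8% were called lower and 20.4% higher in control, and 20.0% lower and 19.6% higher in CsA. Each list, here and below, counts 1 reference probe set per gene, so these shares are not like for like. A fit with 1 probe set per gene called 47.5% of genes in control and 45.8% in CsA, in either direction. The median log2 change of the 10 was -0.73 in control and -0.59 in CsA, against 0.03 in both over the reference probe sets of all genes. Without CsA 48 h replicate 3, 6 fell and 1 rose in CsA, against 25.7% of all probe sets called lower and 23.3% higher in that fit. The nuclear lamin gene LMNB1 fell by 2.45 ± 0.17 in control (adjusted p = 0.000263) and fell by 3.84 ± 0.35 in CsA (adjusted p = 0.000845). The log2 changes in control and CsA were -1.47 and -1.55 for LMNB2 and -1.81 and -2.35 for NES, the progenitor filament nestin, all called. LMNA, the gene of the A-type lamins, fell by 1.12 in control (adjusted p = 0.000321) and fell by 0.63 in CsA (adjusted p = 0.0150). PRPH, the neuronal filament peripherin, was the 1 gene that rose and is named after its values were seen. It rose by 1.88 in control and 3.58 in CsA. Its 12 h arrays lay close to the filter, at 4.24 to 4.93 in control and 4.00 to 4.94 in CsA. VIM, the mesenchymal filament vimentin, fell by 0.34 ± 0.09 in control (adjusted p = 0.0282) and had -0.05 ± 0.10 in CsA (adjusted p = 0.741). None of the 10 was called between CsA and control, against 0% of all probe sets at 12 h and 0.0388% at 48 h. The difference of effects was not called for any of them with all arrays, where 0.320% of all probe sets were called. Without CsA 48 h replicate 3, 2.34% of all probe sets were called for it. Among them were LMNB1 (-1.78, adjusted p = 0.0126) and SYNM, the synemin gene (-0.68, adjusted p = 0.0397). SYNM was then also called over time in CsA (-0.77, adjusted p = 0.00241 by limma). With all arrays it was not (-0.55, adjusted p = 0.0744).

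**Figure D4:**
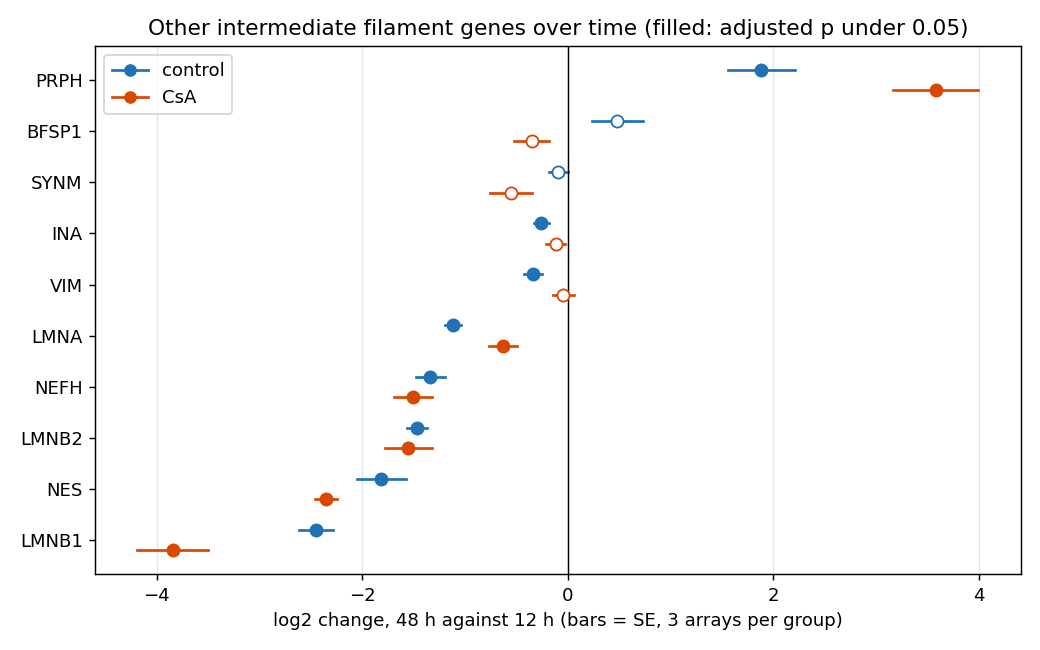
Log2 change from 12 h to 48 h (x axis, bars are SE, 3 arrays per group) of the 10 tested intermediate filament genes other than keratins (y axis), in control (blue) and CsA (orange); filled points have an adjusted p under 0.05. Most genes lie left of 0, and PRPH lies to the right in both.

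Of 8 tested desmosome genes, 1 rose in control, and in CsA 1 rose and 1 fell, against 39.3% of all probe sets called in control and 39.6% in CsA. The median log2 changes were 0.04 and 0.11, against 0.03 over all genes. PKP2, a plakophilin that links desmosomal plaques to filaments, rose by 1.63 ± 0.25 in control (adjusted p = 0.00395) and 1.05 ± 0.16 in CsA (adjusted p = 0.00466). DSP, the desmoplakin that holds keratin filaments, had 0.08 ± 0.23 and 0.34 ± 0.24, and neither passed; without CsA 48 h replicate 3 its change in CsA was 0.23 (adjusted p = 0.505). JUP, plakoglobin, fell by 0.49 ± 0.13 in CsA (adjusted p = 0.0246) and had -0.39 ± 0.13 in control (adjusted p = 0.0598).

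Of 7 cytolinker and hemidesmosome genes, 4 fell in control and 6 in CsA, and none rose. The background called lower was 18.8% and 20.0%, and the medians were -0.43 and -0.66 against 0.03 over all genes. PLEC, the plectin that ties keratins to hemidesmosomes, fell by 0.62 ± 0.12 in CsA (adjusted p = 0.00877) and had -0.59 ± 0.23 in control (adjusted p = 0.0917). In control and CsA, the log2 changes were -1.07 and -0.93 for ITGA6, a hemidesmosomal integrin chain, -1.62 and -0.66 for EVPL (envoplakin), and -0.43 and -0.84 for CD151, a tetraspanin that binds that integrin, all called. EVPL lay close to the filter at 48 h, at 3.63, 4.25 and 4.36 in control and 4.32, 4.82 and 5.03 in CsA. Of 13 genes whose proteins bind or organise keratins, 7 fell in control and 5 in CsA, and none rose, against the same 18.8% and 20.0% called lower. Their medians were -0.28 and -0.44, against 0.03 over all genes. Without CsA 48 h replicate 3, 8 fell in CsA, against 25.7% of all called lower. In control and CsA the changes were -1.30 and -0.76 for YWHAH and -0.44 and -0.60 for YWHAQ, phosphoprotein-binding adaptors, and -0.94 and -0.59 for FAM83H, which recruits a kinase to keratin filaments, all called.

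Of 9 genes of simple epithelial identity, 3 rose in control, and in CsA 2 rose and 1 fell. The background called higher was 20.4% in control and 19.6% in CsA, and the medians were 0.15 and 0.07 against 0.03 over all genes. OCLN and MARVELD2, tight junction proteins, rose by 0.96 and 0.74 in control and by 1.36 and 1.22 in CsA. CD24, a surface glycoprotein of many epithelia, fell by 0.83 ± 0.16 in CsA (adjusted p = 0.00924) and had -0.07 ± 0.18 in control (adjusted p = 0.780). Of 5 detected epithelial transcription factors, 1 rose and 1 fell at each exposure, against 39.3% of all probe sets called in control and 39.6% in CsA. KLF4 rose in both (1.63 and 2.01), KLF5 fell by 0.93 in control and TFAP2A fell by 0.71 in CsA. KLF5 had -0.04 in CsA, and without CsA 48 h replicate 3 it was called there at -0.43 (adjusted p = 0.0211). No gene of these pathway lists was called between CsA and control, against 0% of all probe sets at 12 h and 0.0388% at 48 h. KLF4 came nearest at 48 h (log2 change 1.61 ± 0.24, adjusted p = 0.0662).

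Markers of other cell types were checked because they could move with the keratins. Endothelial, leukocyte and urothelial markers lay below 4 on every array (4 of 4, 3 of 3 and 4 of 4 genes). Of 7 fibroblast and mesangial markers 2 lay below 4 on every array, and of the 5 tested 1 rose over time in control and 1 fell in CsA, against 39.3% and 39.6% of all probe sets called. ACTA2, smooth muscle actin, rose by 1.68 ± 0.19 in control (adjusted p = 0.00136) and had 1.63 ± 0.59 in CsA (adjusted p = 0.0730). LUM, the matrix proteoglycan lumican, fell by 1.79 ± 0.32 over time in CsA (adjusted p = 0.00763). At 48 h LUM was lower in every CsA array than in every control array (log2 difference -1.68, adjusted p = 0.108). So was COL1A1, a chain of type I collagen (-0.95, adjusted p = 0.128). Arrays of these groups did not overlap for 27.5% of all tested probe sets. Without CsA 48 h replicate 3, ACTA2 was called over time in CsA (2.34, adjusted p = 0.000166). So were COL1A1 (-0.94, adjusted p = 0.00802) and DCN, decorin (-1.49, adjusted p = 0.00656), against 49.0% of all probe sets in that fit. COL1A1 was then also called in the difference of effects (-1.10, adjusted p = 0.0454), where 2.34% of all probe sets were called. DCN read 2.69 to 5.29 over the 12 arrays, close to the filter. The mean log2 level of the 7 markers ran from 5.57 to 5.70 in control at 12 h, 5.59 to 5.72 in CsA at 12 h, 5.76 to 6.10 in control at 48 h and 5.32 to 5.70 in CsA at 48 h.

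The mean of the proximal tubule list was 5.17 to 5.19, 5.18 to 5.20, 5.02 to 5.13 and 4.92 to 4.94 in the same order. Its 3 detected genes did not overlap between CsA and control arrays at 48 h, against 27.5% of all tested probe sets, and none was called. The log2 difference there was -1.16 for CDH6, a cadherin of proximal tubule cells (adjusted p = 0.0662), -1.75 for SLC4A4, a bicarbonate transporter (adjusted p = 0.0799), and 1.09 for PAX8, a renal transcription factor (adjusted p = 0.0662). The difference of effects was called for CDH6 (-1.25, adjusted p = 0.0233) and PAX8 (0.99, adjusted p = 0.0402), among the 0.320% of all probe sets called.

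Collecting duct cells are of interest because KRT7 and KRT19 are known from them. Of 7 markers of the loop, distal tubule and collecting duct, 3 lay below 4 on every array. SCNN1A, a sodium channel subunit, read 7.43 to 8.67 over the 12 arrays. AQP3, a water and glycerol channel, fell by 1.11 ± 0.18 over time in CsA (adjusted p = 0.00493). At 48 h it was lower in every CsA array than in every control array (log2 difference -1.38, adjusted p = 0.0745). Such a lack of overlap held for 27.5% of all tested probe sets. No other gene of this list was called. The mean of the list was 4.52 to 4.62 in control at 12 h, 4.43 to 4.48 in CsA at 12 h, 4.54 to 4.59 in control at 48 h and 4.21 to 4.35 in CsA at 48 h. Of 4 podocyte markers 2 lay below 4 on every array and none was called. PODXL, podocalyxin, read 9.99 to 10.9 with a median of 10.3. The podocyte mean was 5.58 to 5.78, 5.58 to 5.72, 5.66 to 6.03 and 5.78 to 5.92 in the same order. The part of these shifts in the keratin results was not tested, and in bulk RNA fewer cells of a kind and less RNA per cell cannot be told apart.

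Among 9932 reference probe sets of other genes with a mean log2 value of at least 6 (9933 for KRT15), those most like each keratin over the 12 arrays were taken by Pearson r. The arrays fall into 2 times, so r also takes in any step between them, and no p is given. Nearest to KRT18 were REX1BD (0.985), CCT2 (0.984), a subunit of the chaperonin that folds actin and tubulin, and PRPS1 (0.981). Nearest to KRT8 was ATF7 (0.990) and to KRT19 SNRNP40 (0.983), followed by UACA and GSN, the actin-severing gelsolin, both at 0.973. Nearest to KRT80 was MYG1 (0.987), and to KRT10 were IFI35 (0.970), an interferon-induced gene, WDPCP and TAP2, the peptide transporter of antigen presentation (both 0.966). KRT7 was nearest to IRAK1 (0.965), FLII (0.949) and ITGA3 (0.934), an integrin chain, and KRT15 to SIMC1 (0.880).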

How the data were processed

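Total RNA of 12 HK-2 cultures was labelled and hybridised to Affymetrix arrays, per the labels' protocols. The authors summarised each probe set on the log2 scale with GCRMA, per the submitters' processing notes; its version and settings are not stated there. GCRMA corrects background by probe sequence, so low values are compressed. No further normalization was applied.

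The platform annotation gave 1 gene symbol for 41091 of 54675 probe sets, several for 1801 and none for 11783, which counts control probe sets as unnamed. Probe sets with 1 symbol and a log2 value above 4 on at least 3 arrays were tested (20625). Each comparison was fitted with limma 3.58.1 (R 4.3.3) on its own 6 arrays, and the difference of effects on all 12. Tests were two-sided, with Benjamini-Hochberg adjustment over all 20625 and a threshold of 0.05. The 3 arrays per group limit the precision. The fit was tested on simulated data.

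The keratins, gene lists and tests were chosen with earlier results of these data known. Of each list, VIM, DSP, JUP, PLEC and LMNB1 were always named, with up to 3 further members of smallest p among those called, and 3 genes with the highest r per keratin. PRPH, SYNM, IVL and the marker genes were named after their values were seen.

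Same-numbered arrays deviated together at 12 h (r across probe sets 0.392 to 0.550) and between the controls (0.124 to 0.295). Each pair was above the required 0.1, so replicate numbers were taken to pair those groups. This was not so at 48 h (r -0.149 to 0.306) or over time in CsA (-0.0738 to 0.19). Some pairs there were above 0.1, so effects shared by replicate number may remain. The main fits used group only, so their SEs and adjusted p-values ignore the pairing. With the replicate block, 6 of 9 keratin probe sets were called over time in control, against 39.6% of all. At 12 h that fit called none. No 2 arrays held identical values. Alternatives were the shared spread, the replicate block, other filters, gene-level tests, renormalization, array weights and left-out arrays; the gene lists were refitted without CsA 48 h replicate 3, chosen after seeing the data. Promoter letters are from RefSeq (GRCh38.p14), whose table held 2 of the 8 genes.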

Additional observations from a re-analysis of the deposited data

Results flagged for a closer look

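KRT7 (209016_s_at) moved in opposite directions over time in the 2 exposures. All 3 control arrays at 48 h were below the 12 h controls (log2 change -0.44, adjusted p = 0.181 by limma, and -0.17 with adjusted p = 0.255 without control 48 h replicate 2), and all 3 CsA arrays at 48 h were above the CsA arrays at 12 h (log2 change 0.69). The difference between these changes was 1.14 ± 0.31 (SE) and did not pass the test over all probe sets (limma, adjusted p = 0.136). It was called with array weights (0.97, adjusted p = 0.0440) and with the replicate block (adjusted p = 0.0480). Those fits called 6.08% and 2.15% of all probe sets, against 0.320% in the main fit. The block assumes that replicate numbers pair all arrays, and the pairing rule was not met at 48 h or over time in CsA. Control 48 h replicate 2 was the lowest KRT7 array at 10.58 and CsA 48 h replicate 3 the highest at 12.60.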

How the results depend on the processing

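The processing was varied in 23 ways, of which 12 left out 1 array each and 1 was chosen after seeing the data (both 48 h arrays numbered 3 left out). With 3 arrays per group and dim probe sets compressed by background correction, only changes well above the spread can be called. The calls of KRT19, KRT8, KRT80 and KRT10 207023_x_at over time in control, and of KRT80 and KRT10 207023_x_at over time in CsA, held in every alternative that tested them. Where the cause of a changed value is not given, the cause was not tested.

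Keratin probe sets called over time in CsA numbered 3 with the replicate block, with no filter and without both arrays numbered 1, and 8 with array weights and without both arrays numbered 3. Those fits called 6584 of 20625, 6059 of 41091, 6219, 11580 and 10097 of 20625 probe sets in all. At 48 h they numbered 2 with all arrays sharing 1 spread and 1 with array weights. For the difference of effects 1 was called with the replicate block (KRT7, adjusted p = 0.0480), with array weights (KRT7) and without both arrays numbered 3 (KRT10 207023_x_at, 0.49, adjusted p = 0.0396). Replicate numbers were not taken to pair the arrays at 48 h or over time in CsA, where not every pair was above the required r of 0.1.

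Probe sets called at 48 h numbered 2620 with 1 shared spread, 1998 with array weights, 82 above a log2 of 6, 3 median centred, 1 with no filter, and 0 with the replicate block and without both arrays numbered 1 or 3; at gene level they were 123 (1 probe set per gene) and 88 (mean). At 12 h 1 was called with the shared spread. For the difference of effects they numbered 443 with the replicate block, 35, 124, 24 and 1253 with no filter, above 6, median centred and with array weights, 4 and 1266 without arrays numbered 1 and 3, and 125 and 102 at gene level. Over time, fewer features were tested at gene level, giving 5295 and 5114 in control and 5109 and 5102 in CsA.

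Among single probe set changes, leaving out single arrays aside, 403 values kept their direction and side of the threshold, 16 gained a call, 16 lost one and 8 turned sign. KRT18 at 12 h was -0.0039, -0.0025 and -0.0012 quantile normalized again, median centred and with array weights. KRT8 at 48 h was 0.00066 median centred and 0.11 without arrays numbered 1. For the difference of effects KRT8 was -0.14 with array weights, and -0.24 and KRT15 -0.071 without arrays numbered 3.

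Leaving out 1 array at a time gave 2 to 8 keratin calls over time in CsA and 4 to 7 in control. Of all 20625 probe sets, those fits called 5764 to 7922 over time in control (27.9% to 38.4%). They called 5359 to 10097 over time in CsA (26.0% to 49.0%). At 48 h the number was 0 to 23, and for the difference of effects 0 to 482. KRT15 over time in CsA ran from -0.12 to 0.00022 and in the difference of effects from -0.027 to 0.12. KRT18 and KRT7 at 12 h ran from -0.047 to 0.038 and -0.089 to 0.061, and KRT8 from -0.24 to 0.075 at 48 h and -0.17 to 0.15 in the difference of effects.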

Other observations

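KRT10-AS1 (226565_at), the RNA transcribed opposite KRT10, was looked up after the KRT10 values had been seen. It read 9.88, 9.78 and 9.81 in control at 12 h and 10.22, 10.34 and 10.17 in control at 48 h, and 9.82, 9.72 and 9.93 in CsA at 12 h and 10.32, 10.26 and 10.08 in CsA at 48 h. At both exposures all 48 h arrays were above all 12 h arrays, as they were for KRT10; no test was run on it.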
